A study of Drosophila melanogaster with 2 samples.

Results

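Among the 30000 peaks of the authors' pooled Psq list, 1582 were weak peaks whose summits lay in protein-coding exons away from gene starts. They were chosen by rank and position. The list was sorted by the authors' own peak score, ranks above 6000 were taken as weak (24000 peaks), and a summit had to lie in annotated coding sequence (CDS) and more than 500 bp from any transcription start site (TSS). The score and the gene models therefore define these peaks, and neither their low scores nor their place in coding exons is a finding. They made up 6.59% of the weak peaks (Wilson 95% interval 6.28 to 6.91, which covers counting error only), and all 1582 could be placed in a gene.

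The list came from chromatin immunoprecipitation followed by sequencing (ChIP-seq) on whole Drosophila melanogaster embryos aged 0 to 24 hours, of both sexes pooled. All embryos carried a transgene for Psq with GFP fused to its C terminus, and chromatin was precipitated through the GFP tag. The 2 biological replicates, numbered 3 and 4 in the labels, form a single group, with no untreated or mutant group beside it. Peaks of each replicate were derived by the authors against the same control alignment, which was not analysed here, and whole embryos mix all cell types. The lists hold no read numbers, so the depth behind any peak is unknown.

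Psq (pipsqueak) is a BTB-domain protein whose Psq DNA-binding domains recognise GAGA-type repeats, and it is known as a partner of GAGA factor and of Polycomb group silencing. Such proteins mostly act at promoters, enhancers and Polycomb response elements, and coding exons are not their usual targets. A relaxed peak list of this kind is made to feed a reproducibility analysis (irreproducible discovery rate, IDR). By design it runs on from peaks into background, and its lower ranks can hold both.

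The sequences at 7 of these summits show what kind of DNA they cover. Each runs 50 bp to either side of the summit, plus strand, from the RefSeq dm6 assembly, in lower case. Capitals mark GAGAG or CTCTC, its reverse complement, and CAGCAG or CTGCTG. The first group holds the highest-scoring peaks overlapped in both replicate lists. These lie in BNIP3 (a mitophagy receptor gene) at chr3L:20515963-20516063, in CG31817 at chr2L:16333955-16334055, and in ari-1 (ariadne-1, a RING-type ubiquitin ligase gene) at chrX:18136465-18136565. None of them holds any of these motifs in the window printed.
BNIP3: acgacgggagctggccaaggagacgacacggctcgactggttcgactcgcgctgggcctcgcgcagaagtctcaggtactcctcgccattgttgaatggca
CG31817: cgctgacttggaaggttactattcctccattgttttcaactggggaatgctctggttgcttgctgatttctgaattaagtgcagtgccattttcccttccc
ari-1: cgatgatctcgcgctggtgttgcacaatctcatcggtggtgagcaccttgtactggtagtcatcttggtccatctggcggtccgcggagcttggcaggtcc
The next group holds long runs of alternating G and A, in CG32017 at chr4:1140483-1140583 and in grnd (grindelwald, a tumour necrosis factor receptor gene) at chr2L:18486055-18486155.
CG32017: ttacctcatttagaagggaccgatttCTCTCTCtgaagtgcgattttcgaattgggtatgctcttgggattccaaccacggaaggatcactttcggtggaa
grnd: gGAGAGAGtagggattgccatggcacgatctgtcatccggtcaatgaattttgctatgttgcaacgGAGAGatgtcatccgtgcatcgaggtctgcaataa
The last group holds long CAG runs, in MYPT-75D (a targeting subunit of myosin phosphatase) at chr3L:18665678-18665778 and in tna (tonalli, a trithorax group gene) at chr3L:10872928-10873028, and both runs are read as glutamine codons.
MYPT-75D: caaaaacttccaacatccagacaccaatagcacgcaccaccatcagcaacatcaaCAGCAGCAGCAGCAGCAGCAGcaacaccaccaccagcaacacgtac
tna: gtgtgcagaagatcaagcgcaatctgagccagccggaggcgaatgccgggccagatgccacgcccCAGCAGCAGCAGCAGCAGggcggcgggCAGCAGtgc

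GAGA-type sequence was about as frequent at these summits as in coding sequence in general. GAGAG, searched on either strand up to 100 bp from the summit, was present at 22.3% of the 1582 summits (95% interval 20.3 to 24.4). It was present in 23.1% of 92761 windows of the same length tiled over coding sequence more than 500 bp from a TSS. Windows centred 1000 bp to either side held it in 22.2% and 19.9%, and in 26.7% and 21.6% where that flank also lay in coding exons. Within 50 bp of the summit GAGAG was present at 12.8%, against 12.3% of windows of that length. At the 2999 IDR peaks, the authors' thresholded list, GAGAG was present at 33.1% of summits.

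The longer repeat GAGAGAG, which contains GAGAG, was found at 25 weak coding-exon summits (1.58%, interval 1.07 to 2.32), against 1.07% of coding windows and 9.64% of IDR summits. Its ratio to coding windows was 1.48 within 100 bp of the summit but 1.05 within 50 bp and 0.968 within 220 bp. CACACAC was present at 2.02% of the summits, 1.77% of coding windows and 11.3% of IDR summits, and within 50 bp its ratio to coding windows was 0.78. An alternating GA run of 8 or more bases lay within 50 bp of the summit in 2 of the 1582, in CG32017 and CG30183. No share of coding windows is given for such runs, so nothing is read from this count. The peaks overlapped in both replicate lists held GAGAG at 24.4% (interval 20.6 to 28.6) and the others at 21.5% (19.2 to 24.0). These intervals overlap.

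Of the 6 motifs searched, CAGCAG was the most frequent at these summits. CAGCAG, on either strand, was at 27.6% of the summits (25.5 to 29.9) and in 29.8% of coding windows, against 12.8% of weak intron summits and 11.5% of IDR summits. The rule placed these summits in coding exons, so the gap to intron and IDR summits is no finding. The longer CAGCAGC, which contains it, was at 14.2% and in 15.5% of coding windows. On the coding strand, 272 summit windows held CAGCAG, and in 168 of them (61.8%) at least 1 copy was read as glutamine codons. In coding windows with CAGCAG on that strand the share read as glutamine was 65.6%. Runs of CAG of 12 or more bases occurred within 50 bp of 14 summits, again with no share of coding windows beside it. TATAAA, an A+T-rich hexamer, was at 9.17% of summits (7.84 to 10.7) against 6.89% of coding windows. In the replicates' own weak coding-exon peaks it was at 7.52% in replicate 3 (6.38 to 8.84) and 8.16% in replicate 4 (7.05 to 9.42).

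Base composition was closer to coding sequence than to the rest of the list. The rule placed these summits in coding exons, so this is no finding. The median GC content within 100 bp of the summit was 51.7% (mean 50.7 ± 8.14%, SD over 1582 peaks), against a median of 52.2% in coding windows, 39.3% at weak intron summits and 37.8% at IDR summits. Below 60% GC the distribution leaned to lower GC than coding windows. Windows below 40% GC were 11.0% of the summits (9.55 to 12.6) and 6.47% of coding windows, and 205 of the 1582 were from 40 to 45% (interval 11.4 to 14.7%), against 10.4% of coding windows. Those from 50 to 55% were 24.7% (22.6 to 26.8) and 28.1%, and those from 55 to 60% were 19.9% (18.0 to 22.0) and 23.8%. From 60% up the shares were 12.3% (10.7 to 14.0) and 11.6%. Mean GC was 50.7% at the summits and 51.8% in coding windows, and without chromosome 4 it was 51.3% and 52.0%. GC content did not separate peaks seen in both replicates, whose median was also 51.7%.

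Coding-exon summits became more frequent with falling rank in all 3 lists. In the pooled list they were 0.233% of ranks 1 to 3000 (7 peaks) and 0.467% of ranks 3001 to 6000 (14 peaks). The share was then 1.33% at ranks 6001 to 9000, 4.57% at 9001 to 12000, 5.98% at 12001 to 18000, 8.08% at 18001 to 24000 and 9.35% at 24001 to 30000. In the list of replicate 3 the share went from 0.3% in the strongest 3000 peaks to 9.87% in the weakest 6000, and in replicate 4 from 0.233% to 11.4%. Even in the last ranks it stayed below 13.9%, the share of the chromosome arms that is coding sequence more than 500 bp from a TSS. Each replicate's own list had weak coding-exon peaks in similar numbers, 1782 (7.42% of 24000) in replicate 3 and 2060 (8.58%) in replicate 4.

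**Figure D1:**
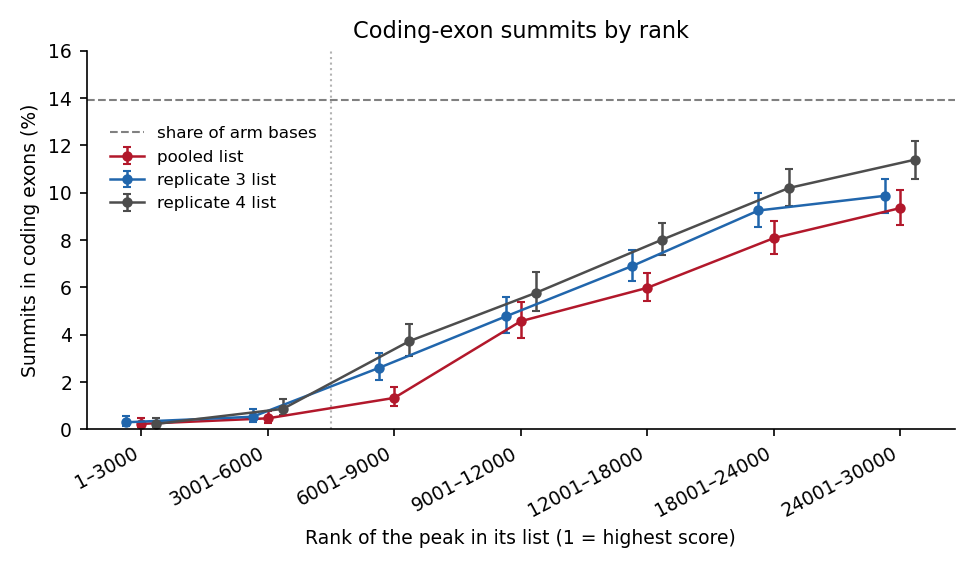
Share of summits in coding exons more than 500 bp from a TSS (%, y axis) by rank within each list (x axis), for the pooled list and the 2 replicate lists. Bars are Wilson 95% intervals, the dashed line is the 13.9% of arm bases that are such coding sequence, and the dotted line is rank 6000. All 3 lines climb from under 1% in the strongest 6000 peaks to between 9.35% and 11.4% in the weakest, and none reaches the dashed line.

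The scores of the 1582 peaks ran from 18.1 to 44.8 with a median of 22.2, lower than the median of 24.5 over all weak peaks, and their ranks from 6298 to 29983 with a median of 21394. Every one was 440 bp wide. A deposited q-value below 0.05 was reached by 7 of them (0.442%), against 5.6% of all weak peaks, and their median q was 0.653. Since q follows the score that chose them, this describes the peaks and nothing is read from it. The peaks just inside the rank limit were those in BNIP3 (rank 6298, score 44.8) and CG31817 (rank 6479, score 44.1). Just outside it were coding-exon peaks in HisRS (rank 5717, score 47.7) and Ptp4E (rank 5962, score 46.5). At the limit on TSS distance, Acp26Aa and Orc2 were inside at 501 bp and CG33969 and DJ-1alpha outside at 499 bp. In all, 21 coding-exon summits ranked 1 to 6000 and 619 weak CDS summits lay within 500 bp of a TSS.

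Fewer of these peaks were found in both replicates than of the other weak peaks. The list of replicate 3 overlapped 821 of them (51.9%, against 69.3% of all weak peaks), and that of replicate 4 overlapped 1051 (66.4%, against 72.6%). Both lists overlapped 439 (27.7%, interval 25.6 to 30.0), against 47.4% of all weak peaks, 46.6% of weak intron peaks and 42.4% of weak intergenic peaks. Neither list overlapped 149 (9.42%, against 5.49% of all weak peaks). The pooled list was made from the reads of both replicates, so these overlaps are no independent replication.

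The lower overlap was also there within ranges of rank, though ranks inside a range were not matched. Within ranks 6001 to 12000, both lists overlapped 75.7% of the coding-exon peaks and 84.2% of the other weak peaks. The shares were 45.4% and 55.6% at ranks 12001 to 18000, 19.2% and 31.4% at 18001 to 24000, and 8.73% and 21.3% at 24001 to 30000. Coding-exon peaks were the lower in all 4 ranges. Of the 177 in ranks 6001 to 12000, however, 137 ranked 9001 to 12000, so they lay low within that range. Weak 3' UTR peaks were also below the other weak peaks, at 37.0% over all weak ranks.

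**Figure D2:**
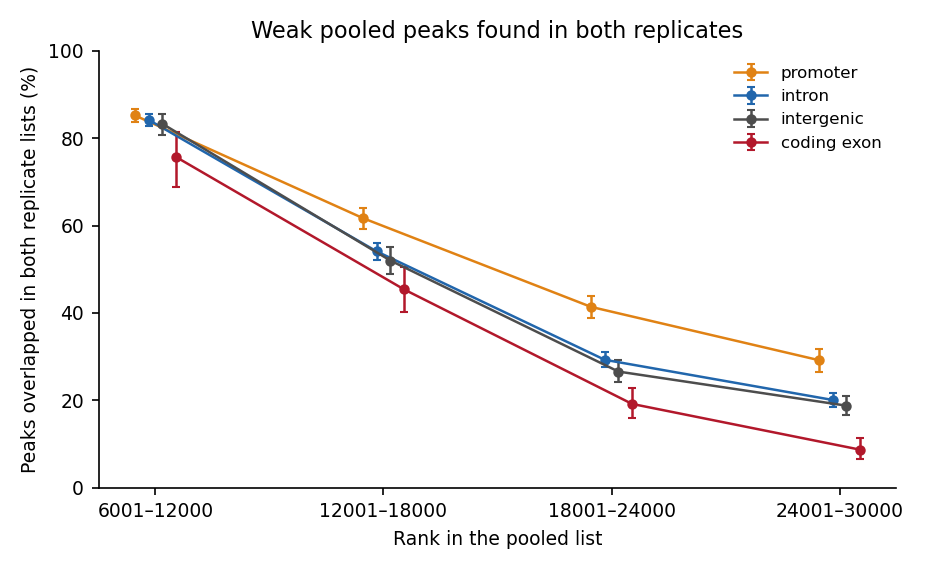
Share of weak pooled peaks overlapped by both replicate lists (%, y axis) by rank in the pooled list (x axis), for 4 classes of summit. Points are shares and bars Wilson 95% intervals. Coding-exon peaks fall from 75.7% to 8.73% and are the lowest class in each of the 4 rank ranges.

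The replicates' own lists, called on separate reads but against the same control, allow a check that does not pass through the pooled list. Of the 1782 weak coding-exon summits of replicate 3, 326 (18.3%) lay inside a peak of replicate 4, while replicate 4 peaks covered 4.7% of that coding sequence. That is 3.89 times the covered share. Over all weak summits of replicate 3, 37.4% lay inside a replicate 4 peak. In the other direction, 348 of 2060 (16.9%) lay inside a replicate 3 peak, against 4.13% of bases covered, a ratio of 4.09, and over all weak summits of replicate 4 the share was 36.9%. Intron summits had higher shares and higher covered shares, 37.3% against 9.35% and 37.4% against 9.47%, with ratios of 3.99 and 3.95. Intergenic summits reached 5.59 and 5.60. Ratios were lower than in coding exons for promoter (2.47 and 2.45), 5' UTR (2.94 and 2.75), 3' UTR (2.9 and 2.78) and other exon summits (3.64 and 3.71). The same control alignment stands behind both lists, and its part in the shared positions was not tested.

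**Figure D3:**
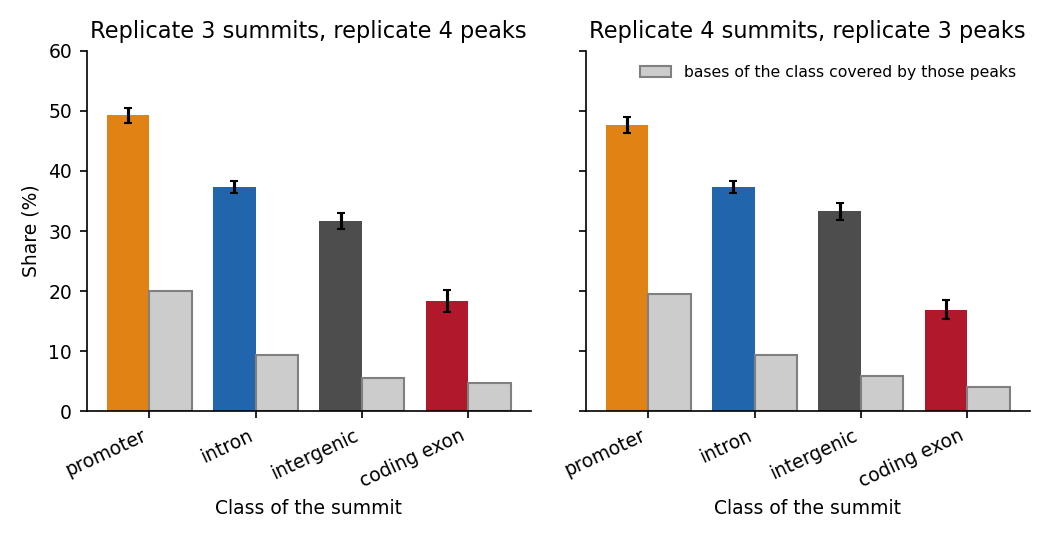
Share of 1 replicate's weak summits that lie inside a peak of the other replicate (%, coloured bars with Wilson 95% intervals) beside the share of bases of that class covered by those peaks (grey bars), by class of summit. Coding exons have the lowest coloured bars, 18.3% and 16.9%, and the lowest grey bars, 4.7% and 4.13%.

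The strongest peaks found in both lists covered genes of varied function. The BNIP3 peak had a pooled score of 44.8, with an overlapping peak of score 13.9 (rank 15820) in replicate 3 and of score 27.5 (rank 5700) in replicate 4. In ari-1 the scores were 43.9 pooled, 21.9 in replicate 3 and 32.0 in replicate 4. The replicate 4 summit lay 303 bp from the pooled summit, outside that coding interval of 219 bp. Scores have a scale of their own in each list and are set side by side only to describe them. In Atg1, the kinase gene that starts autophagy, the scores were 41.2, 29.5 and 16.9. There the replicate 3 summit lay 124 bp from the pooled summit, outside that coding interval of 90 bp. In Coprox, an enzyme gene of haem synthesis, the scores were 41.5, 23.6 and 16.2.

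The same group held CG32425 (42.0 pooled), Vps13D (41.2), a lipid transfer protein gene, Cul6 (40.3), a cullin, shams (40.2), a xylosyltransferase that modifies Notch, and Msp300 (39.9), a giant nesprin of muscle. The order differed between replicates: the shams peak ranked 5643 in replicate 3 and 27618 in replicate 4, and the Cul6 peak 11111 and 7648. The 439 peaks in both lists had a median rank of 17562 in replicate 3 and 17010 in replicate 4, against 12875 and 13019 for weak intron peaks in both. Distances were taken to the highest-scoring overlapping peak of each replicate. For these 439 the median was 50 bp in replicate 3 and 28 bp in replicate 4, against 70 and 59 bp for those intron peaks. The intron peaks overlapped replicate peaks ranked as high as 7 and 15, against 1190 and 1636 for the 439. The distances therefore do not compare how well summits are placed.

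Chromosome 4, the small, mostly heterochromatic arm, was the densest in these peaks and the X chromosome the sparsest. Chromosome 4 held 71 of them, 278.3 per Mb of eligible coding sequence (CDS more than 500 bp from any TSS), against 101.3 on 2L, 81.9 on 2R, 93.9 on 3L, 84.3 on 3R and 48.1 on X, where there were 160. Own lists gave the same extremes, with 247 and 321.5 per Mb on chromosome 4 in replicates 3 and 4, and 62.8 and 60.4 on X. Weak intron peaks per Mb of intron were also densest on chromosome 4, at 328.9, while X, at 191.8, was close to the 192.6 of all arms. Eligible coding sequence had 41.6% GC on chromosome 4 and 55.5% on X, the lowest and highest of the arms. The part of base composition, of copy number or of mapping in these densities was not tested.

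**Figure D4:**
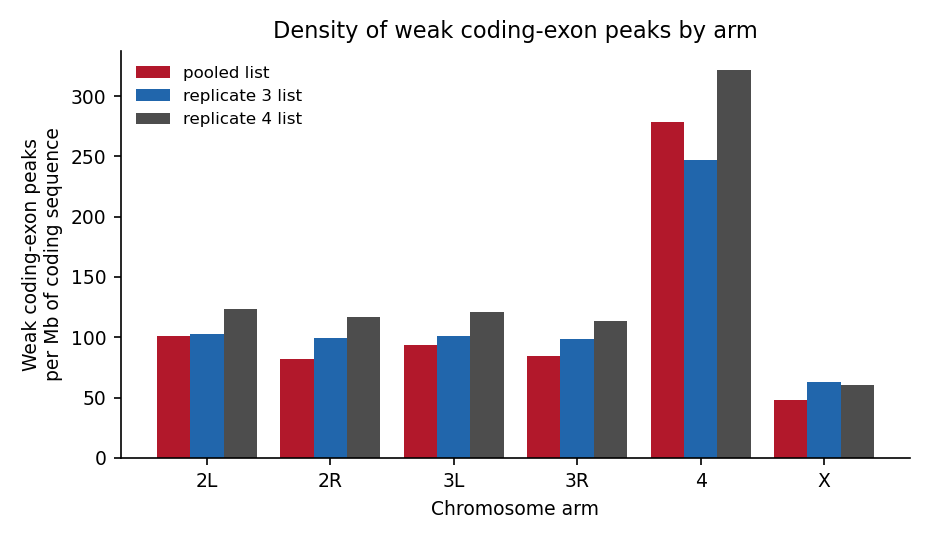
Weak coding-exon peaks per Mb of coding sequence more than 500 bp from a TSS (y axis) for each chromosome arm (x axis), in the pooled list and in each replicate's own list. Chromosome 4 stands highest in all 3 lists (278.3, 247 and 321.5 per Mb) and X lowest (48.1, 62.8 and 60.4).

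The peaks lay nearer to a TSS, of whichever gene, and in shorter coding intervals than coding sequence at large. The median distance to the nearest TSS was 1332 bp, against 1886 bp for eligible coding bases. Between 501 and 1000 bp there were 556 peaks (35.1%) against 23.7% of bases, and beyond 5000 bp 10.2% against 18.4%. The coding interval that held the summit was a median of 539 bp long, against 821 bp for an eligible coding base. Intervals under 250 bp held 24.0% of the summits (16.2% of bases), and intervals of 2000 bp or more held 8.28% (17.2% of bases).

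Summits also lay close to the ends of their coding interval. Within 50 bp of an edge there were 434 (27.4%, against 20.7% of bases), while 29.4% lay 200 bp or more inside, against 45.3%. The 440 bp interval was wholly coding for 439 peaks (27.7%) and less than 50% coding for 182 (11.5%), so most peaks cover some intron or untranslated sequence as well. With the longest CDS of each gene cut into 5 equal parts, the part at the stop codon held 26.8% of the 1533 summits that could be placed (22.3% of bases) and the part at the start codon 16.7% (12.8%). The latter holds few bases because sequence within 500 bp of a TSS was left out.

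**Figure D5:**
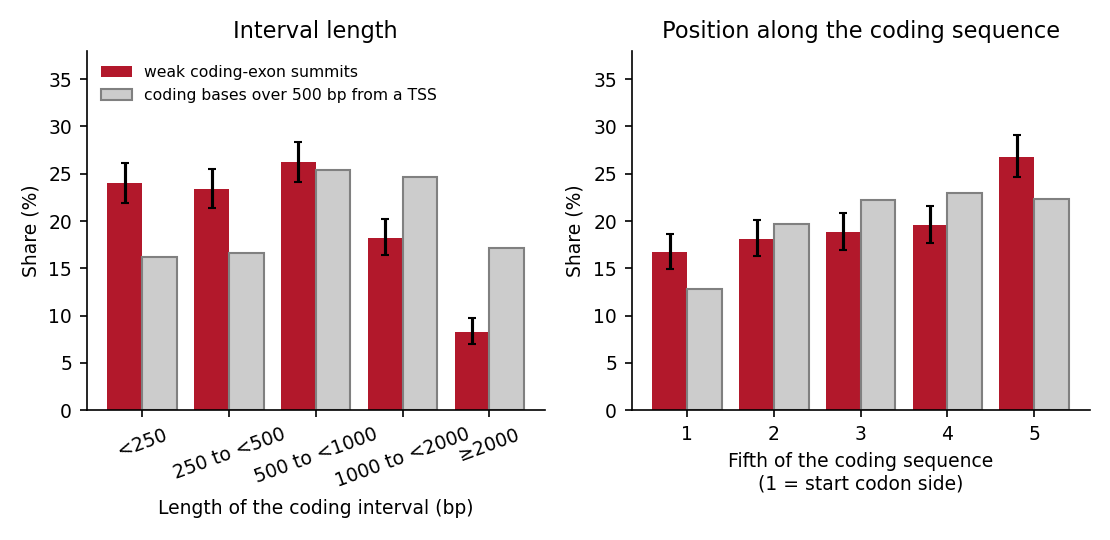
Left, share of the 1582 summits (red, Wilson 95% intervals) and of eligible coding bases (grey) by length of the coding interval in bp. Right, the same for 5 equal parts of the coding sequence from start to stop codon, for the 1533 summits that could be placed. Summits exceed bases below 500 bp of interval length and in the first and last parts, and fall short of them in intervals of 1000 bp or more.

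Few of the peaks stood beside strongly bound sites. An IDR summit lay within 1000 bp of 74 of them (4.68%, interval 3.74 to 5.83), against 2.35% of eligible coding bases, 6.16% of weak intron summits and 3.24% of weak intergenic summits. Within 2000 bp the share was 15.0%, against 8.21% of bases. Of the 1582 intervals, 2 overlapped an IDR peak. The rule left out the strongest peaks of the pooled list, so nothing is read from that count. Another peak of the set was overlapped by 106 (6.7%), so these are not separate loci. Overlap with pooled peaks outside the set was not counted. No share over all weak peaks is given beside either count.

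The peaks were spread thinly over genes. Of 12397 protein-coding genes with eligible coding sequence, 1399 (11.3%) held at least 1. Most of these, 1246, held exactly 1, while 130 held 2 and 23 held 3 or more. Of those 23 genes, 10 lie on chromosome 4. With the 17 genes that held 3 ordered by peaks per kb, the 10 genes with the most held 38 in all. Among these 10, chromosome 4 carries pan, the TCF factor of Wnt signalling, CG33978, apolpp, which encodes the lipid carrier apolipophorin, unc-13, a synaptic vesicle priming factor, bt, the titin-like muscle protein projectin, and JYalpha, a sodium pump subunit.

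Overlap in both replicate lists varied among these 10 genes. In pan, 5 peaks had scores from 20.7 to 29.8 and none was overlapped in both lists. CG33978 also had 5, with 1 in both lists, and unc-13 had 4 with none. By contrast, all 3 peaks were overlapped in both lists in corto, CG31797 and JYalpha. In corto, which encodes a chromatin protein that binds Polycomb and trithorax group complexes, the scores were 34.6, 28.5 and 35.0. Neighbouring intervals in these genes overlap the same replicate peak, however. In corto the summits at 5085571 and 5085892 on 3R share 1 peak of each replicate list, ranked 17784 in replicate 3 and 5765 in replicate 4.

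The gene psq itself, on 2R, held 4 of the peaks, 1.12 per kb of eligible coding sequence against 0.085 per kb over all genes. Each replicate's own list had only 1 weak coding-exon summit in psq. The summits of the 4 were at 10562026, 10610857, 10611073 and 10615101 and their scores 30.6, 20.3, 21.3 and 22.4. Only the psq peak at 10562026, in a coding interval of 165 bp, was overlapped in both lists, with scores of 14.0 in replicate 3 and 29.0 in replicate 4. The summits of those replicate peaks lay 267 and 262 bp from it, however, and so outside that coding interval. The pair at 10610857 and 10611073 overlapped each other and shared 1 peak of replicate 3, and the psq peak at 10615101 was overlapped in replicate 4 alone. The embryos carry psq coding sequence in the transgene as well. Signal from the transgene and from the chromosomal gene cannot be told apart here, and the labels do not say which parts of psq the transgene spans.

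Gene lists were compared by peaks per kb of eligible coding sequence, with exact Poisson 95% intervals that cover counting error only. The intervals were not widened for the number of lists. The lists were not matched for exon length, TSS distance or chromosome arm. Of 25 lists, 11 lay above the level of all genes and 3 had no peak. The interval lay wholly above 0.085 per kb for 2 lists and wholly below it for 7. Among the regulatory groups to which Psq is known to be linked, trithorax and GAGA factor genes held 11 peaks (0.127 per kb, interval 0.0636 to 0.228) in 5 of 18 genes, and 4 of the 11 are the psq peaks above. Polycomb group genes held 6 (0.115 per kb, 0.0422 to 0.25) in 6 of 18 genes. Both intervals include the level of all genes. In the replicates' own lists the ratio to all genes was not above 1 for trithorax and GAGA factor genes, at 0.847 in replicate 3 and 0.837 in replicate 4, against 1.5 in the pooled list. For Polycomb group genes it was 1.35 pooled, 1.2 in replicate 3 and 0.865 in replicate 4.

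By the rule, every peak of these groups ranks above 6000, and the median rank of all 1582 was 21394. The highest were skd, a Mediator subunit gene of the trithorax group, with a score of 32.5 and rank 10799, and Su(z)2, a relative of Psc in Polycomb repression, with 34.8 and rank 9584. Both were overlapped in both lists. For skd, however, the replicate 3 summit lay 330 bp from the pooled summit, and the own list of replicate 3 had 0 weak coding-exon summits in the gene. The peak in Pc, the chromodomain subunit that binds methylated histone H3, had a score of 25.9 and was overlapped in replicate 4 alone. From the Notch pathway list, Hairless (H), the co-repressor of Notch targets, had a peak of pooled score 30.7, with an IDR summit 882 bp away. It was overlapped in both lists, by peaks of score 17.5 in replicate 3 and 13.5 in replicate 4. The Notch list was at 0.871 times the level of all genes, and at 1.16 and 1.34 times in the own lists of replicates 3 and 4.

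The 2 lists whose intervals lay wholly above the level of all genes were translation factor genes and ribosomal protein genes. Translation factor genes held 7 peaks (0.231 per kb, 0.0929 to 0.476) in 6 of 18 genes, among them eIF4G1 with a score of 33.0 and eIF5B with 32.7, both overlapped in both lists. The replicates' own lists gave 8 and 7 summits in the same genes. Of the 7 pooled peaks, 2 lie in eIF4G1, which is on chromosome 4. That arm held 278.3 such peaks per Mb of eligible coding sequence, against 85.0 over all arms. The density without eIF4G1 was not computed. Ribosomal protein genes held 6 (0.355 per kb, 0.13 to 0.772) in 6 of 59 genes, but the replicates differed. Replicate 3 had 1 own summit there (0.0591 per kb) and replicate 4 had 11 (0.65 per kb). The RpS13 peak, of score 35.3, had a replicate 4 peak of score 28.5 (rank 5416) and none in replicate 3, and the RpL35A peak, of score 30.1, had one in each. Ribosomal protein genes are short, and only 16.9 kb of their coding sequence lay more than 500 bp from a TSS.

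The 7 lists whose intervals lay wholly below the level of all genes were structural, adhesion and sensory receptor genes. Peaks of the whole set were sparser in long coding intervals and far from a TSS. The part of either in these low values was not tested. The upper limits for extracellular matrix (0.0848 per kb) and muscle structural genes (0.0843) lay close to the level of all genes, 0.085. Cytoskeleton genes had 1 peak in 114.6 kb, in Khc, the kinesin heavy chain gene, at 0.103 times the level of all genes. Mucin genes were at 0.213 times, extracellular matrix genes at 0.276, chemoreceptor genes at 0.349 and axon guidance and adhesion genes at 0.366. In the own lists of replicates 3 and 4 these ratios were 0.283 and 0.0817 for mucin genes, 0.367 and 0.53 for extracellular matrix genes, 0.558 and 0.536 for chemoreceptor genes, and 0.325 and 0.421 for axon guidance and adhesion genes. Muscle structural genes held 8 peaks, at 0.503 times the level, 2 of them in Msp300. Cadherin genes held 0 in 54.4 kb, which with an exact interval allows up to 0.0679 per kb, while each replicate's own list had 3 summits in them. The cytoskeleton genes held 3 own summits in replicate 3 and 10 in replicate 4, so that low value was not shared by both libraries.

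Among developmental genes, EGFR and Ras pathway genes held 7 peaks in 7 of 20 genes (0.173 per kb, 0.0694 to 0.356). That is 2.03 times the level of all genes, but each replicate's own list had 4 summits there, at 1.03 times in replicate 3 and 0.891 times in replicate 4. The Egfr peak, in the receptor gene, had a score of 36.9 and was overlapped in both lists. The peak in aos, which encodes the secreted inhibitor Argos, had a score of 35.0 and was overlapped in replicate 4 alone. Heat shock and chaperone genes held 5 (0.25 per kb, 0.0813 to 0.584), led by Hsp27, a small heat shock protein gene, at 38.1, with replicate scores of 19.2 and 19.4. The heat shock list was at 2.95 times the level of all genes in the pooled list and at 1.05 and 1.36 times in the own lists of replicates 3 and 4. Gap and pair-rule genes held none in 21.8 kb, and chorion and yolk genes none in 11.0 kb, which allow up to 0.169 and 0.336 per kb, both above the level of all genes.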

How the data were processed

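The authors' deposited peak lists for dm6 were used: 1 relaxed list per replicate, the pooled list and the optimal IDR list. Each replicate's list was derived from its own alignment and a shared control, per the deposited description files. Chromatin was sonicated to 200 to 800 bp, per the labels. No IDR threshold, aligner or caller is named (not given in the sources used here). Per the authors' deposited values, a score ranks peaks within its list only, the deposited −log10 q-value was turned into q, and the summit is the deposited offset from the peak start (1 pooled summit given beyond its peak's end was kept inside). Scores carry no SD or n.

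Gene models came from Ensembl release 115 without transposable elements, and sequence from the RefSeq dm6 assembly, on arms 2L, 2R, 3L, 3R, 4 and X. Summits were classed in the order promoter (within 500 bp of a TSS), coding exon, UTR (5' before 3'), any other exon, intron, and intergenic last. Overlap meant at least 1 bp. Coding windows of 201 bp were tiled over eligible coding sequence. The 6 motifs searched were those named in the report, matched exactly on both strands, and the longer ones contain shorter ones. Named genes were those of the 10 highest-scoring peaks in both replicate lists, the 10 genes with the most peaks (ties ordered by peaks per kb), up to 2 peaks of each gene list, and the 2 peaks on each side of a limit. Sequences shown were the strongest of these and the longest GA and CAG runs, arm 2R left out. CG30183 was named after its values were seen. The peaks and gene lists were chosen with earlier results of these data known. Of 347 gene symbols entered by hand, 12 had no exact match, letter case included, and were not analysed here, and the cuticle list was corrected after it had taken in other genes. With 1 group no test between conditions was made. Classing and overlap were tested on simulated peaks. Python 3.11.15, numpy 2.4.6, pandas 2.3.3, scipy 1.17.1 and matplotlib 3.10.9 were used.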

Additional observations from a re-analysis of the deposited data

How the results depend on the processing

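Of the alternative values of the main results, 46 stayed within the replicate or counting spread and 23 moved beyond it. For 3 motifs the ratio to coding windows passed to the other side of 1 in another window: GAGAG from 0.965 to 1.04 and CACACAC from 1.14 to 0.78 within 50 bp, and GAGAGAG from 1.48 to 0.968 within 220 bp. The number of peaks was 1026 with a TSS limit of 1000 bp. Their share of weak peaks was 5.91% above rank 3000, 7.81% above rank 12000, 7.95% with a TSS limit of 250 bp and 4.28% with 1000 bp, and 7.42 to 8.58% when 1 replicate's own list was used. The share in both replicate lists was 13.8% with summits within 100 bp, 21.7% with 50% of the peak covered, 4.8% with the strongest 15000 peaks of each replicate and 21.7% above rank 12000. Cross-replicate shares were 12.2% (replicate 3 in 4) and 11.1% (4 in 3) with summits within 100 bp, and 7.24% and 6.07% with 15000 peaks. Median GC was 53.5% within 50 bp and 49.2% within 220 bp. For TATAAA the ratio was 1.09 to 1.18 in own lists. The share near an IDR summit was 15.0% within 2000 bp, and 28.7 to 29.7% of own summits lay in coding intervals of 1000 bp or more, against 26.5%. Leaving out chromosome 4, chosen after seeing the data, moved none of the 4 results it was run on. For single gene lists, 9 values moved and 91 did not, but 9 lists had a ratio on the other side of 1 in at least 1 replicate's own list. For ribosomal protein genes the ratio to all genes was 0.617 in replicate 3 alone, and for cytoskeleton genes 0.788 in replicate 4 alone. Depth is unknown, so what it limits cannot be stated.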
